A study of Rattus norvegicus with 16 samples.

Results

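Transcript levels in the dentate gyrus of rats in the group labelled 3 hour (2 arrays) were set against those of the naive group (3 arrays). These 5 arrays, chosen by their labels, are 5 of the 16 in the series, which also holds groups labelled 0 h (2 arrays), 2 h (2), 6 h (3), 12 h (2) and 24 h (2). Total RNA was measured on the Affymetrix RGU34A array, a single-colour array. Of its 8740 probe sets other than controls, 7006 are annotated to 1 gene symbol and 308 to several. Every label, the naive ones included, describes the rats as passive avoidance trained. Naive is read here as untrained, and whether the hours were counted from the training session is not stated. No source used here gives strain, sex or age, nor whether arrays of a group came from separate animals or from pooled tissue. The p-values therefore rest on the variation among these arrays alone, and that variation may be technical.

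Passive avoidance is a task in which an animal learns to avoid a place where it received an aversive stimulus by not entering it, and the dentate gyrus is the entry point of cortical input to the hippocampus. In granule neurons, strong activity is known to switch on immediate early genes within minutes. Their products and the protein synthesis of the following hours are held to be needed for lasting memory.

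All levels below are log2 of the scaled intensity, and a difference is the 3 h mean minus the naive mean on that scale. The lowest level, to which all dimmer values were set, is 2.28. The trimmed mean intensity before scaling was 113 to 143 on the naive arrays and 148 and 102 on 3 h replicates 1 and 2. The beta-actin 3'/5' ratio, a control that is higher where RNA is degraded or copied incompletely, was 1.49 to 1.70 on the naive arrays, 1.51 on 3 h replicate 1 and 2.15 on 3 h replicate 2. The median level over the tested probe sets was 5.77 to 5.86 on the naive arrays, 5.79 on 3 h replicate 1 and 5.60 on 3 h replicate 2. Pairwise correlations among the 5 arrays were between 0.938 and 0.966. The highest was between groups, for naive replicate 1 with 3 h replicate 1. Within groups it was 0.960 for the 3 h arrays and 0.944 to 0.956 for the naive arrays. Of the dentate granule neuron markers, the calcium-binding protein gene Calb1 stood at 8.12, 8.36 and 8.67 on the naive arrays and at 8.36 and 8.38 at 3 h.

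No probe set differed between 3 h and naive after adjustment over all those tested (0 of 6220, 0%, limma with Benjamini-Hochberg adjustment), and the smallest adjusted p was 0.0911. Leaving out 1 array let 9 probe sets pass without naive replicate 1, 4 without 3 h replicate 2, 2 without 3 h replicate 1 and 2 without either 0 h array. Without adjustment, 48 probe sets (0.772%) were higher and 220 (3.54%) lower at p under 0.05, together 268, where 311 would be expected if nothing differed. The lowest p-values belonged to Enpp2, Hnrnpu, Cox8b, Prlr and Ttr, all lower at 3 h. A difference of at least 2-fold with no overlap between the groups was seen for 29 probe sets that were higher (0.466%) and 139 that were lower (2.23%).

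**Figure D1:**
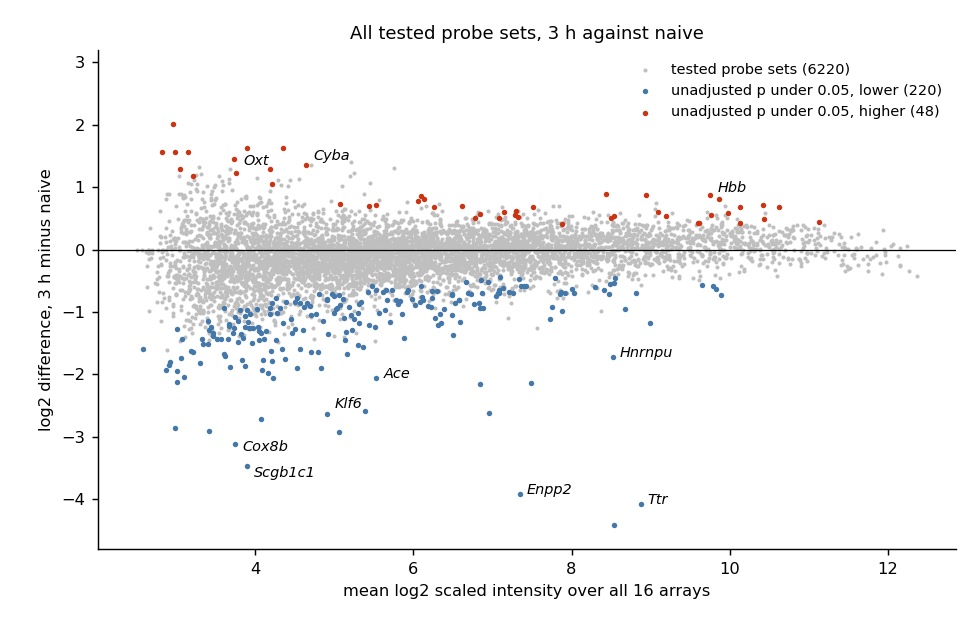
Each point is 1 of the 6220 tested probe sets, with its mean level over all 16 arrays (log2 scaled intensity) on the horizontal axis and its log2 difference, 3 h minus naive, on the vertical axis. Coloured points have an unadjusted p under 0.05: 220 lower and 48 higher, with the genes of largest difference on the lower side.

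The excess of lower over higher probe sets depended on how the arrays were scaled. Which 3 h array was kept changed the counts, but lower probe sets outnumbered higher ones either way. With each array brought to a common trimmed mean, 82.1% of the probe sets at unadjusted p under 0.05 were lower. With quantile normalization 65 were higher and 127 lower (66.1% lower), and with each array centred on its median 190 were higher and 101 lower (34.7% lower). The median difference over all tested probe sets was -0.07, 0.03 and 0.11 in the same order. Without 3 h replicate 2, 15 probe sets were higher and 80 lower; without 3 h replicate 1, 54 were higher and 396 lower. At the level of 3678 genes, each represented by the probe set with the highest mean, 1646 were above naive and 2032 below, with a median of -0.04.

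**Figure D2:**
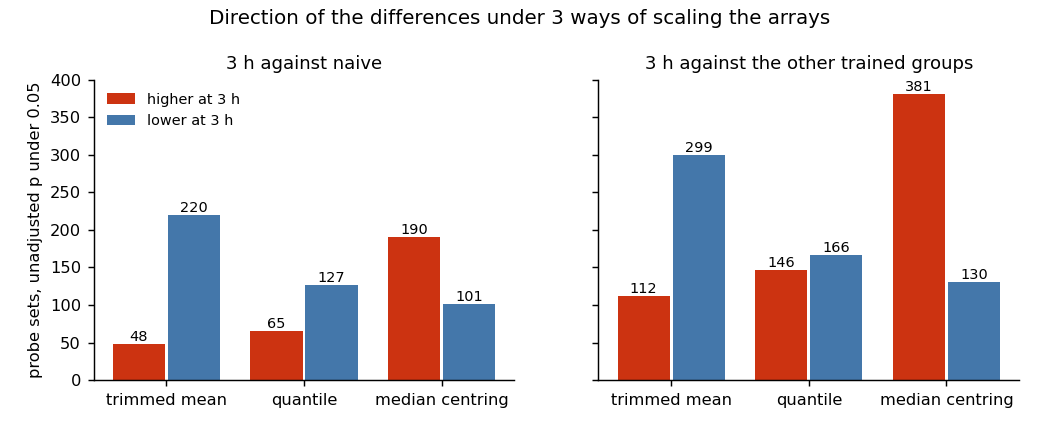
Bars count the probe sets with an unadjusted p under 0.05, higher or lower at 3 h, after scaling to a common trimmed mean, quantile normalization or median centring of the arrays; the left panel is 3 h against naive, the right panel 3 h against the other trained groups. Lower probe sets outnumber higher ones 220 to 48 against naive with the trimmed mean, and the order turns to 101 against 190 with median centring.

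Promoter windows of 4 genes on which the account turns are given here, from RefSeq on the rat build GRCr8, each 250 bases before to 50 after the annotated start and read 5′ to 3′ along the gene. Hnrnpu (chr13:92618531-92618830, minus strand) is the 1 gene that passed adjustment in the main fit, against the other trained groups. Ace (chr10:91409879-91410178, plus strand) and Cox8b (chr1:205408224-205408523, minus strand) are among the genes with the smallest p on the lower side, and Dusp1 (chr10:17184603-17184902, plus strand) is an immediate early gene. Capitals mark matches, on either strand, to a TATA motif (TATAAA), a bicoid-type homeodomain motif (TAATCC), a forkhead motif (TGTTTAC), and the cyclic AMP response element as its 5-base core (TGACG) or whole (TGACGTCA).
Hnrnpu: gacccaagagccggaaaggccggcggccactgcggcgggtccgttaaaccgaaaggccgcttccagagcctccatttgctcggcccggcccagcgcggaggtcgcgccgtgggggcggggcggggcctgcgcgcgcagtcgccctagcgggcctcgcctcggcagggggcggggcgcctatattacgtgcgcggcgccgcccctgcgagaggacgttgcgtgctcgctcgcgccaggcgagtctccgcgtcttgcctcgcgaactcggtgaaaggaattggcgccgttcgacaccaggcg
Ace: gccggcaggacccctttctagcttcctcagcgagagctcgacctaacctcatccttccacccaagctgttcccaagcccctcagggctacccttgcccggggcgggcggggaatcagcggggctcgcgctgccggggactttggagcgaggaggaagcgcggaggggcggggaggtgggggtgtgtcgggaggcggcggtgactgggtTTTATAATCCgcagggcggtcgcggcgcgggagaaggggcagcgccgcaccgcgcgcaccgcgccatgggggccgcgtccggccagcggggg
Cox8b: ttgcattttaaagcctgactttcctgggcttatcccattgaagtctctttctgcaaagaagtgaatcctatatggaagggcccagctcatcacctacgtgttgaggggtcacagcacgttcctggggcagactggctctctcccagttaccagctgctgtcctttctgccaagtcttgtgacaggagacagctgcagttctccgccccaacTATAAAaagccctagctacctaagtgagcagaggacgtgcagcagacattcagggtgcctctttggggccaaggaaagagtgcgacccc
Dusp1: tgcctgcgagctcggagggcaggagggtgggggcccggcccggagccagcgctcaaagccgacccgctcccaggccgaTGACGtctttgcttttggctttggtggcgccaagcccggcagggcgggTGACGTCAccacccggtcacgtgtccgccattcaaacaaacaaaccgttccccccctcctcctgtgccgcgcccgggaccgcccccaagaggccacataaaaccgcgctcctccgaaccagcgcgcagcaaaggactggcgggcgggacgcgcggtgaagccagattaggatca

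In the Ace window the TATA match begins 42 bases before the start, read on the opposite strand, and overlaps the homeodomain match that begins at 38 bases. The TATA match of Cox8b begins 39 bases before the start. Dusp1 holds the whole cyclic AMP response element 124 bases before the start, which contains its core on both strands, and a further core at 172 bases. The Hnrnpu window holds none of the 5 motifs. Over all 33469 promoters, TATAAA is present in 14.2%, TAATCC in 7.17%, TGTTTAC in 3.78%, TGACG in 21.2% and TGACGTCA in 1.83%. TGACG occurs in 12 of the 19 matched promoters of immediate early genes, in 14 of 34 of ribosomal protein genes and in 0 of 11 of the choroid plexus list. Such matches describe the letters only.

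The largest differences from naive over all tested probe sets were those of Ttr and Enpp2, genes of the choroid plexus, the secretory epithelium of the ventricles that makes cerebrospinal fluid. Of 26 listed markers of choroid plexus and ependyma 14 were on the array and 13 passed the filter on dim probe sets. These 13 were below naive at 3 h, with a median difference of -1.52. With 1 of the 5 arrays left out the median ran from -0.99 (without naive replicate 2, when 1 gene was above naive) to -1.70 (without naive replicate 1). Groups did not overlap for 7 of them, where 11.4% of all genes were lower without overlap, and 7 had an unadjusted p under 0.05, where 3.18% of all genes did on the lower side. No member passed adjustment.

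Enpp2, which encodes the secreted enzyme autotaxin, stood at 7.98, 10.04 and 9.85 on naive replicates 1, 2 and 3 and at 4.39 and 6.35 on the 3 h arrays. Both 3 h arrays lay below every naive array, and replicate 1 also below all other trained arrays (5.78 to 8.91). The difference was -3.92 (SE 0.65, limma adjusted p = 0.0911), and a second Enpp2 probe set differed by -2.62. In that second probe set naive read 6.30, 9.05 and 9.63, and the 3 h arrays read 5.63 and 5.78. Both 24 h arrays were lower still there (5.52 and 5.03). Ttr, the gene of the thyroid hormone carrier transthyretin and a very abundant choroid plexus transcript, read 10.75, 11.42 and 11.89 in naive and 8.05 and 6.51 at 3 h. The groups were again apart, by -4.07 (SE 0.93, adjusted p = 0.490). On the 11 other trained arrays Ttr ranged from 6.08 to 11.90, so the 3 h levels lay within that range.

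Sostdc1, an inhibitor of BMP and Wnt signalling, read 4.81, 7.96 and 7.72 in naive and 3.77 and 4.04 at 3 h. Ace, which makes angiotensin II, read 5.34, 7.79 and 7.12 in naive and 5.002 and 4.40 at 3 h. For both, naive replicate 1 was nearer to the 3 h arrays than to the rest of its group. The differences were -2.92 for Sostdc1 and -2.05 for Ace. Slc4a2, an anion exchanger, differed by -1.57 in 1 probe set and by -2.86 in the other. In the latter the 3 h arrays read 2.34 and 2.28, so that its value is a lower bound in size. It passed the filter on dim probe sets only through naive replicates 2 and 3 (5.69 and 6.59). Every trained array was at 3.61 or lower there, so this probe set adds no separate support. The 3 probe sets of Prlr, the prolactin receptor, disagreed: the one with the smallest p differed by -2.91, a lower bound in size with both 3 h arrays at 2.28, while the others differed by -0.13 and -0.58. Igf2 (-0.74), Htr2c (-0.44), Kl (-0.44) and Calml4 (-0.16) overlapped between the groups.

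Array by array, the choroid plexus median relative to the naive mean was -0.99, 0.75 and 0.53 on naive replicates 1, 2 and 3 and -1.47 and -1.30 on 3 h replicates 1 and 2. The mean level of the list was 5.44, 6.96 and 6.81 in naive, 4.78 and 4.83 at 3 h, and 4.74 to 5.98 on the other trained arrays. In tissue RNA, fewer cells of a type and less RNA per cell cannot be told apart. The median stayed below 0 under all 3 scalings (-1.29 with quantile normalization, -1.35 with median centring). Without naive replicate 1, 9 probe sets passed adjustment: 2 of Enpp2 and 1 each of Ace, Cox8b, Hnrnpu, Prlr, Scgb1c1, Slc4a2 and Sostdc1. The smallest of their adjusted p-values, 0.000562, was that of the second Enpp2 probe set. The Slc4a2 probe set was the one that had passed the filter on dim probe sets only through naive arrays, so its call is no separate support. Against the other trained groups the list's median was -0.21. In that comparison 3 of its 13 genes were lower at unadjusted p under 0.05, where 4.81% of all probe sets were. The choroid plexus level was lower at 3 h than in naive, with naive replicate 1 nearer to the 3 h arrays than to the other naive arrays. Its part in the other differences from naive given below was not tested.

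**Figure D3:**
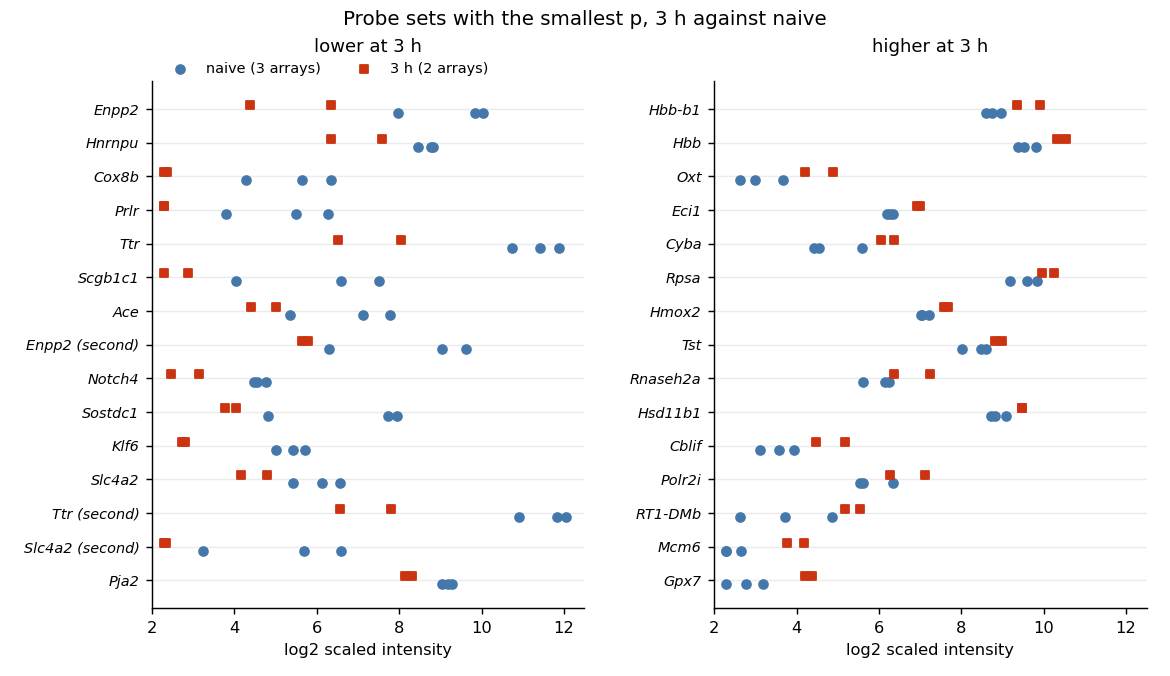
Log2 scaled intensity of the 15 probe sets with the smallest p on the lower side (left) and on the higher side (right) for 3 h against naive; circles are the 3 naive arrays and squares the 2 arrays at 3 h, and "second" marks a gene's other probe set. Naive replicate 1 is the lowest circle for Enpp2, Ttr, Sostdc1 and Ace, and the 3 h squares lie below every circle on the left.

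Several other genes at low p on the lower side were on no choroid plexus list. Cox8b, a cytochrome c oxidase subunit best known from muscle, read 4.28, 6.35 and 5.65 in naive and 2.36 and 2.28 at 3 h, where the last value is the lowest level. It differed by -3.11 (SE 0.65, adjusted p = 0.402). Its second probe set differed by -1.60 with overlapping groups, and was at the lowest level on naive replicate 1 and on every trained array. That probe set passed the filter on dim probe sets only through naive replicates 2 and 3 (5.11 and 4.25). It therefore adds no separate support. Scgb1c1, a secretoglobin, read 2.28 and 2.88 at 3 h, differed by -3.47 and had naive replicate 1 (4.05) far below the other naive arrays (7.52 and 6.59). With 1 of the 3 h arrays at the lowest level, the differences of Cox8b and Scgb1c1 are lower bounds in size. In both genes naive replicate 1 was the lowest of the naive arrays, as it was for Enpp2, Ttr, Sostdc1 and Ace.

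Klf6, a zinc finger transcription factor, read 5.02, 5.43 and 5.72 in naive and 2.79 and 2.73 at 3 h, so that the groups lay apart with little spread in either. The difference was -2.63 (SE 0.67, adjusted p = 0.649). The receptor gene Notch4 read 4.75, 4.55 and 4.48 against 2.47 and 3.14, a difference of -1.79. Pja2, a ubiquitin ligase, differed by -0.94 in 1 of its 3 probe sets and by -0.59 and -0.09 in the others. The ribosomal protein gene Rpl30 read 5.19, 4.97 and 4.84 in naive and was at the lowest level on both 3 h arrays, so the difference of -2.72 is a lower bound in size.

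Hnrnpu encodes a nuclear protein that binds RNA and chromatin and is required for normal splicing. It read 8.45, 8.77 and 8.81 on the naive arrays and 6.35 and 7.58 at 3 h, both below every naive array. The difference was -1.71 (SE 0.30, adjusted p = 0.0931). Against the equal-weight mean of the 0, 2, 6, 12 and 24 h groups, this probe set fell by 1.81 (SE 0.25, limma adjusted p = 0.0130). It was the 1 probe set of 6220 that passed in that comparison (0.0161%). Its 11 values on the other trained arrays ran from 7.82 to 9.16, above both 3 h arrays.

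A second Hnrnpu probe set did not show the same. It read 6.21, 7.60 and 7.73 in naive and 7.48 and 6.48 at 3 h, overlapping, with differences of -0.20 from naive and -0.66 (adjusted p = 0.775) from the other trained groups. The call of the first probe set was lost with median centring, without a variance trend, with the replicate block, with no filter on dim probe sets and without 3 h replicate 1, with adjusted p over its alternatives from 0.000531 to 0.186. Without 3 h replicate 1 the 1 probe set that passed was of Ccnd2; without 3 h replicate 2 the calls were Hnrnpu, Taf6 and Tcea2. Of the 16 measured genes of hnRNPs and RNA-editing enzymes, 14 were below naive and 2 above, with a median of -0.27 (-0.15 and -0.35 on 3 h replicates 1 and 2). The median was -0.18 with quantile normalization (4 above naive) and -0.08 with median centring (6 above). Of the 16 genes, 2 were lower at unadjusted p under 0.05, where 3.18% of all genes were. These 2 were Hnrnpu and the splicing regulator Khdrbs1 (-0.68). Values for others included -0.44 for Hnrnpf, -0.47 for the editing enzyme Adarb1 and 0.07 for Hnrnpc.

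**Figure D4:**
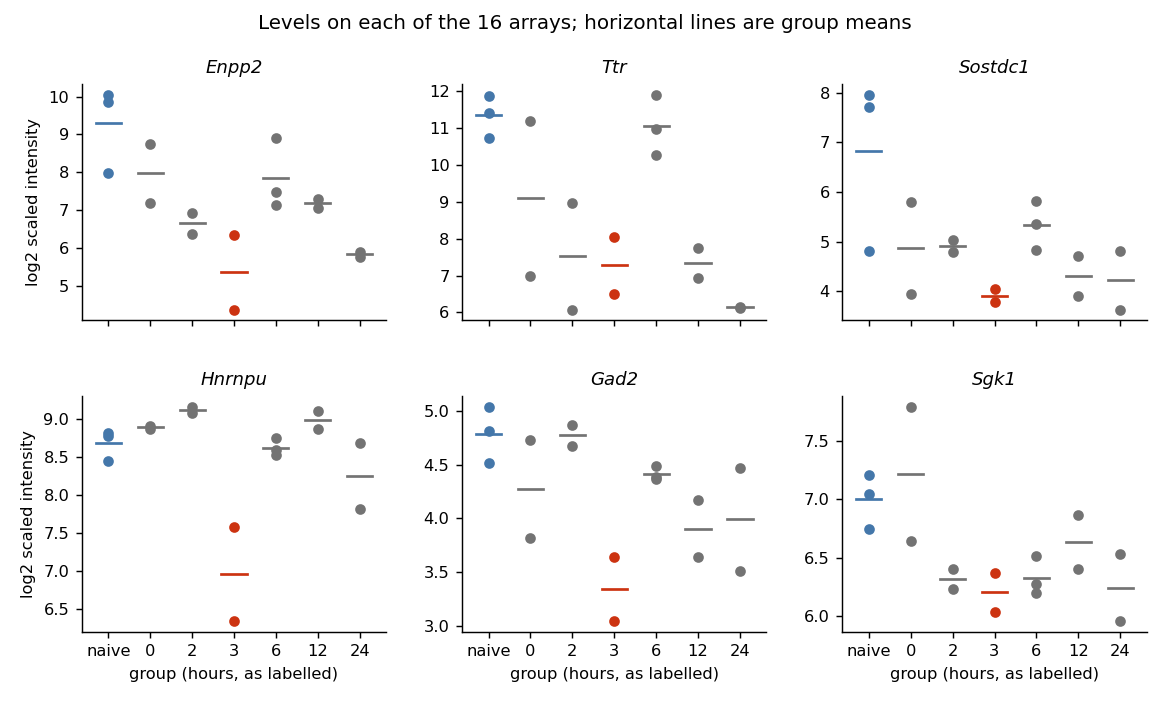
Log2 scaled intensity of 6 genes on each of the 16 arrays by group, with a line at each group mean; naive is blue and 3 h red. Hnrnpu is below all other arrays at 3 h (6.35 and 7.58), whereas Ttr at 3 h (8.05 and 6.51) lies within the spread of the other trained arrays.

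In the comparison with the other trained groups, which does not use the naive arrays, 112 probe sets were higher (1.8%) and 299 lower (4.81%) at unadjusted p under 0.05. Klf6 differed by -2.41 (adjusted p = 0.534), with values of 3.04 to 6.25 on the other trained arrays, and passed when 12 h replicate 1 was left out. The A-type potassium channel gene Kcnd2 differed by -1.08 in 1 of its 2 probe sets, with both 3 h arrays (5.76 and 5.13) under the lowest other trained array (5.79). Its other probe set differed by 0.12. Kcnj1, a potassium channel of kidney, differed by -1.29 and Crybb2, a crystallin, by -1.35, each in 1 of 3 probe sets.

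On the higher side, Cyba, which encodes a subunit of the superoxide-producing NADPH oxidase, read 6.05 and 6.36 at 3 h. It read 4.54, 5.58 and 4.43 in naive and 3.32 to 5.80 on the other trained arrays. Both 3 h arrays were above all other arrays. The difference was 1.95 from the other trained groups (adjusted p = 0.404) and 1.35 from naive. Mapk7, the kinase ERK5, was higher than the other trained groups by 1.36 in 1 of its 2 probe sets and by 0.22 in the other. Rcn3 (0.98), Emc8 (0.91) and the respiratory complex I gene Ndufb1 (0.88) were the next, with adjusted p of 0.543 or more for these 3.

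Of the 15 probe sets named on the higher side, none differed from naive by more than 1.63, and each had an adjusted p of 0.998. The beta-globin genes Hbb and Hbb-b1 had the lowest p. Hbb read 9.37, 9.81 and 9.52 in naive and 10.33 and 10.54 at 3 h, a difference of 0.87. Hbb-b1 read 8.60, 8.96 and 8.75 against 9.36 and 9.91, also 0.87. Their sequences are nearly alike and the probe sets may share signal. The other 4 measured genes of the blood cell list, among them the erythroid genes Alas2 (0.14) and Slc4a1 (-0.18) and the leukocyte gene Ptprc (-0.57), gave values on both sides of 0.

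Oxt, the oxytocin precursor, read 3.00, 2.63 and 3.66 in naive and 4.20 and 4.89 at 3 h, dim on every array, and reached 4.85 on the other trained arrays. The heme oxygenase gene Hmox2 read 7.04, 7.23 and 7.02 against 7.58 and 7.67, and its second probe set differed by 0.57 with overlapping groups. Hsd11b1, whose enzyme regenerates active glucocorticoid, read 9.09, 8.82 and 8.73 against 9.48 and 9.47. In each of these genes both 3 h arrays were above all naive arrays. Eci1, an enzyme of fatty acid oxidation, was higher by 0.69 and 0.61 in 2 probe sets and lower by 0.58 in the third. RT1-DMb, which loads peptides on class II molecules, was higher by 1.63 and 0.62 in its 2 probe sets. Mcm6 (1.57), Gpx7 (1.56) and Cblif (1.29) were dim on all 5 arrays, with 2 naive arrays of Mcm6 and 1 of Gpx7 at the lowest level. The other probe sets of Mcm6 differed by 0.22 and 0.07, and that of Cblif by 0.08 with overlapping groups. Polr2i (0.87), Rnaseh2a (0.80), Rpsa (0.56) and Tst (0.54) completed the higher side.

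Ribosomal protein genes lay mostly above naive: 32 of 37 measured were above naive and 5 below, with a median of 0.29. Groups did not overlap on the higher side for 18, where 7.53% of all genes did not, and 2 had an unadjusted p under 0.05, where 0.734% of all genes did. Rps16, a small subunit protein, read 10.92, 10.83 and 10.88 in naive and 11.10 and 11.53 at 3 h. Rps10 read 9.44, 9.28 and 9.48 against 9.69 and 9.96. Both differences (0.44 and 0.43) were carried more by 3 h replicate 2. The list's median was 0.17 on 3 h replicate 1 and 0.41 on replicate 2, and was 0.22 with quantile normalization and 0.47 with median centring. Against the other trained groups it was 0.02, with 0 of the 37 genes higher and 2 lower at unadjusted p under 0.05. Over all probe sets 1.8% were higher and 4.81% lower in that comparison, so the lower count is near the share over all.

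Nuclear genes of oxidative phosphorylation leaned the same way, with 31 of 38 above naive, a median of 0.14 (0.11 and 0.26 on 3 h replicates 1 and 2) and 8 without overlap on the higher side, where 7.53% of all genes were. None of them was higher than naive at unadjusted p under 0.05, where 0.734% of all genes were. Cyc1 differed by 0.36, Ndufs8 by 0.38 and Ndufb8 by 0.33, and Cox8b and Cox4i2 (-0.60) lay on the other side. With quantile normalization the list's median was 0.12, when that of all genes was 0.05. Against the other trained groups it was 0.07, with 1 gene higher and 3 lower at unadjusted p under 0.05, where 1.8% and 4.81% of all probe sets were. Of the 29 genes of the proteasome and ubiquitin list, 21 were above naive, with a median of 0.15 (0.12 and 0.18). Psmb5, a catalytic subunit, read 10.03, 9.74 and 9.86 against 10.15 and 10.21. Psmd4 (-0.50) and the ligase Nedd4 (-0.90) were lower.

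Genes of inhibitory transmission lay mostly below naive. Of 20 measured genes of GABA synthesis, transport and receptors, 15 were below naive and 5 above, with a median of -0.31. Groups did not overlap on the lower side for 6, where 11.4% of all genes did not, and 5 were lower at unadjusted p under 0.05, where 3.18% of all genes were. Gad2, which makes GABA for synaptic release, read 5.04, 4.51 and 4.81 in naive and 3.64 and 3.04 at 3 h, a difference of -1.45 (SE 0.40, adjusted p = 0.777). Both 3 h arrays were below all naive arrays. Gad1, the other synthesis enzyme, differed by -0.20 with overlapping groups.

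Among the receptor subunits, Gabrg1 differed by -1.23, Gabrr1 by -1.11 and Gabra6 by -0.94, and Slc6a11, the astrocytic GABA transporter, by -0.65. Gabrd, the subunit of tonic inhibition in granule cells, differed by 0.40 and Gabrb1 by 0.16. The list's median was -0.18 on 3 h replicate 1 and -0.69 on replicate 2, which had the higher beta-actin 3'/5' ratio; the part of RNA quality in this was not tested. Of the 14 interneuron markers 12 were below naive, with a median of -0.23, but without naive replicate 3 the median was 0.02 with 7 above. With median centring it was -0.04 with 6 above. The defining peptides Sst (-0.02) and Npy (-0.01) were close to naive, and Pvalb (0.32) and Cck (0.19) were above it.

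Genes of the NMDA, AMPA and kainate glutamate receptors lay further below naive on 3 h replicate 2 than on replicate 1. The 6 measured metabotropic glutamate receptors were divided, 3 above naive and 3 below, with a median of 0.01. Their median was 0.45 on 3 h replicate 1 and -0.27 on replicate 2. All 7 measured NMDA receptor subunits were below naive, with a median of -0.34, and none had an unadjusted p under 0.05. Grin2b read 6.13, 6.00 and 5.80 in naive and 5.61 and 5.46 at 3 h. Grin1, the obligatory subunit, differed by -0.34 with overlapping groups. Of 7 AMPA and kainate receptor subunits 5 were below naive, with a median of -0.35, and Gria3 (-1.05) was the 1 with an unadjusted p under 0.05. The medians were -0.19 and -0.52 for NMDA, and -0.01 and -0.69 for AMPA and kainate, on 3 h replicates 1 and 2. These are the arrays with beta-actin ratios of 1.51 and 2.15.

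Of the 19 postsynaptic scaffolds 17 were below naive, with a median of -0.26 (-0.10 and -0.54 on the 2 arrays). Dlg4, the gene of PSD-95, read 7.60, 6.90 and 7.46 against 6.76 and 6.01, a difference of -0.93, and was the 1 at unadjusted p under 0.05. Homer1 differed by -0.17 in its main probe set (highest mean level), and its 6 probe sets ran from -1.24 to 0.25. The medians of the NMDA, AMPA and kainate, scaffold and GABA lists stayed below 0 under all 3 scalings. With median centring they were -0.16, -0.17, -0.07 and -0.13.

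**Figure D5:**
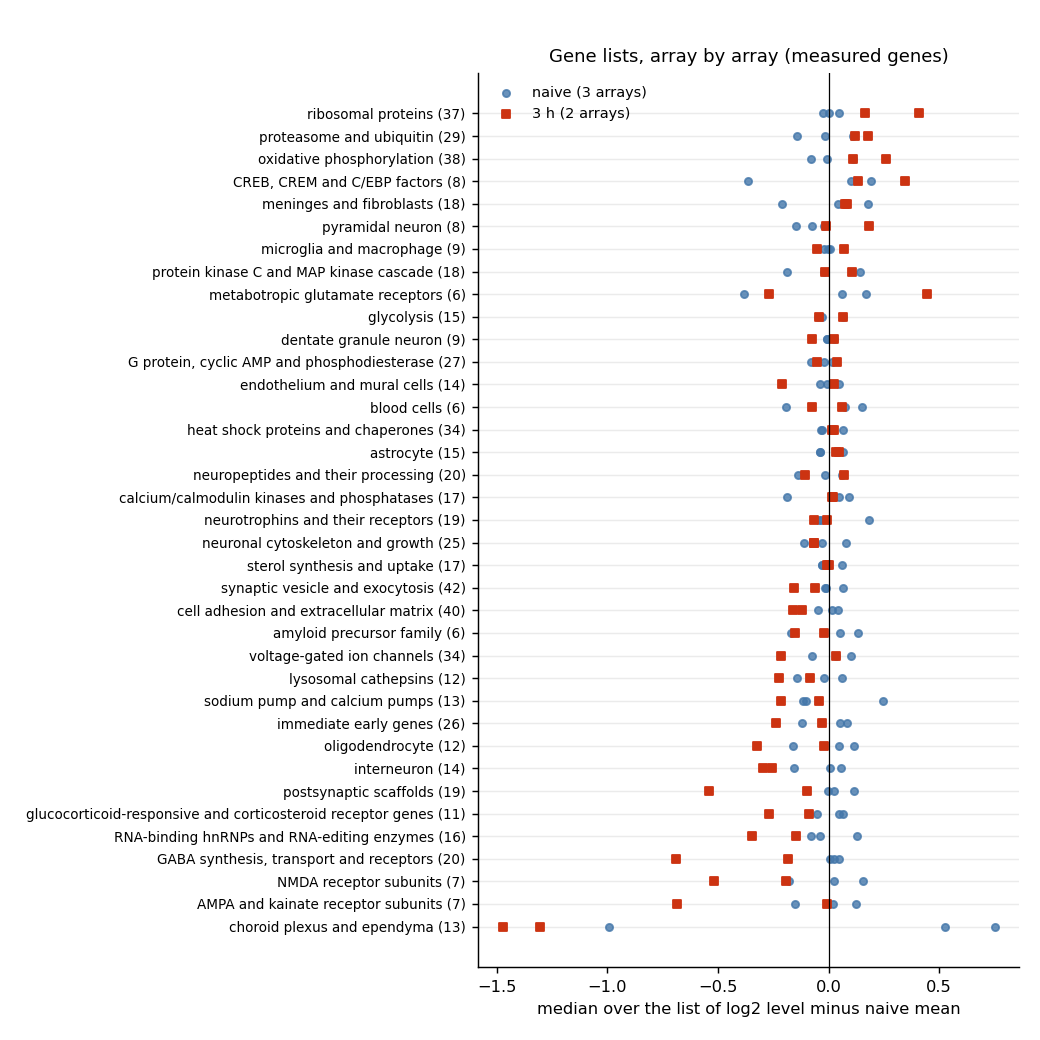
For each gene list with at least 5 measured genes (their number in parentheses), the median over its genes of the log2 level minus the naive mean, for each naive array (circles) and each 3 h array (squares). The choroid plexus list is far to the left at 3 h and split among the naive arrays, and the GABA, NMDA, AMPA and kainate and scaffold lists are lower on 1 of the 3 h arrays than on the other.

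The direction of the immediate early genes depended on the scaling. Of 26 measured, 6 were above and 20 below naive with the trimmed mean, 10 were above with quantile normalization and 14 above with median centring. With the trimmed mean the median was -0.17, and 4 were without overlap on the lower side, near the 11.4% of all genes, and 0 on the higher. Arc, whose product controls AMPA receptor uptake, read 7.20, 7.55 and 7.58 in naive and 7.39 and 7.48 at 3 h. Egr1, a zinc finger transcription factor, read 8.71, 8.35 and 8.92 against 8.79 and 8.54 in the probe set with the highest mean. For both genes the 3 h arrays lay among the naive ones. Fos differed by -0.14, Junb by 0.14, Nr4a1 by -0.09 and Dusp1, whose promoter is printed above, by -0.46.

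The 1 immediate early gene at unadjusted p under 0.05 was Sgk1, a kinase induced by glucocorticoids, which read 6.74, 7.05 and 7.21 in naive and 6.37 and 6.03 at 3 h. It ranged from 5.95 to 7.80 on the other trained arrays. The list's median turned to 0.01 with median centring, when all genes stood at 0.15, and was -0.03 on 3 h replicate 1 and -0.24 on replicate 2. Against the other trained groups it was -0.23, with 4 of the 26 lower and 0 higher at unadjusted p under 0.05. Over all probe sets 4.81% were lower and 1.8% higher in that comparison. Among the 4 were the phosphatase gene Dusp6 (-0.99) and Ier3 (-0.70).

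Other regulators linked to memory lay on both sides of naive. Of 8 CREB, CREM and C/EBP factors 5 were above naive, with a median of 0.11 (0.34 and 0.13 on 3 h replicates 1 and 2), which was -0.04 without naive replicate 3. Cebpb differed by 0.25, Cebpd by 0.34 and Ddit3, a stress-induced member, by 0.56 with an unadjusted p under 0.05. Of 19 neurotrophins and receptors 7 were above and 12 below, with a median of -0.04, which was 0.11 with quantile normalization. Bdnf, the neurotrophin most tied to plasticity, read 6.27, 6.43 and 5.43 in naive and 6.37 and 6.12 at 3 h in the probe set with the highest mean, overlapping. Fgf2 (-0.84) was the 1 lower at unadjusted p under 0.05.

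Of 11 glucocorticoid-responsive and receptor genes 7 were below naive, with a median of -0.27 (-0.09 and -0.27 on the 2 arrays) and with Hsd11b1 (0.60) and Sgk1 (-0.80) at unadjusted p under 0.05 on opposite sides. The glucocorticoid receptor gene Nr3c1 differed by -0.05 and the mineralocorticoid receptor gene Nr3c2 by -0.28. Of 42 synaptic vesicle genes 27 were below naive, with a median of -0.07; Vamp1 (-0.87), Nrxn3 (-0.62) and Nsf (-1.03) were at unadjusted p under 0.05. The medians of the voltage-gated ion channels (-0.13, 34 genes, 0.03 without 3 h replicate 2), cell adhesion and matrix (-0.09, 40 genes) and synaptic vesicle lists turned above 0 with median centring. Heat shock proteins and chaperones were divided, 16 above and 18 below naive.

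Markers of other cell types differed less from naive than those of the choroid plexus. Of 12 oligodendrocyte markers 11 were below naive, with a median of -0.20 (-0.02 and -0.32 on 3 h replicates 1 and 2). With median centring that median was -0.01 and 5 were above naive. Of 18 markers of meninges and fibroblasts 12 were above, with a median of 0.10; without naive replicate 1 the median was -0.12 and 6 were above. The 15 astrocyte markers (7 above, 8 below, median -0.02), the 9 of microglia and macrophages (6 above, 3 below, 0.04) and the 14 of endothelium and mural cells (6 above, 8 below, -0.02) were divided. Of the 9 measured dentate granule neuron markers 4 were above naive and 5 below, with a median of -0.01. The medians of these astrocyte, microglia, endothelium and granule neuron lists changed sign when 1 of the 5 arrays was left out. Of the granule neuron markers, Nptx1, a synaptic pentraxin, was the 1 at unadjusted p under 0.05. It read 7.82, 7.72 and 8.72 in naive and 7.42 and 7.39 at 3 h, below every naive array.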

How the data were processed

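The deposited table gives a linear intensity for every probe set on each array. How the authors corrected or scaled these intensities, with which software, is not given in the sources used here, nor is a genome build. The 16 columns were matched to samples by accession. Of 8799 probe sets 59 controls were left out. Each array was scaled to one 2% trimmed mean (101), intensities below the 20th percentile of all arrays (4.86) were raised to that value, and levels are log2. Probe sets above the pooled 40th percentile (16.3) on at least 2 arrays were tested (6220). Of 8740, 7006 carried 1 symbol in the platform annotation, 308 several and 1426 none; 6985 symbols were updated by identifier.

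limma 3.58.1 (R 4.3.3; lmFit, eBayes with a trend) was fitted jointly to the 7 groups with 1 shared variance per probe set, and tested on simulated data. 3 h was set against naive and against the equal-weight mean of the other trained groups, with Benjamini-Hochberg adjustment at 0.05; both comparisons use the same 3 h arrays. For lists, a gene's probe set with the highest mean stood for it, and no list was tested. Named were the 15 higher and 15 lower probe sets with 1 symbol and the smallest unadjusted p against naive, the 5 and 5 against the other trained groups, and any list member. Other genes that passed with an array left out (Ccnd2, Taf6, Tcea2, Gmfb) or with no filter (Nat1) were named after their values were seen. The comparison and the lists were chosen with earlier results of these data known. The number of arrays limits the precision. The alternatives were other scalings, lowest levels, filters, variance models and array weights, a replicate block, fits of the 5 arrays alone, and leaving out each array.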

Additional observations from a re-analysis of the deposited data

Results flagged for a closer look

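Hnrnpu differed between 3 h and the mean of the other trained groups by -1.81 on the log2 scale in 1 of its 2 probe sets. This was the 1 difference from the other trained groups that passed adjustment in the main fit. The second probe set differed by -0.66. The beta-actin 3'/5' control ratio, which is outside the main measurement, was 2.15 on 3 h replicate 2, above the highest naive value of 1.70. The Gapdh 3'/5' ratio on the same array was 1.48, above the highest naive value of 1.28. On 3 h replicate 1 these ratios were 1.51 and 1.13, and over the 11 other trained arrays they reached 2.80 and 2.04.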

How the results depend on the processing

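Against naive, 0 probe sets passed adjustment under each of the 9 alternatives that kept every array and with the 3 h and naive arrays fitted alone; leaving out 1 array gave 0 to 9, with 9 without naive replicate 1, 4 without 3 h replicate 2 (Enpp2, Hnrnpu, Taf6, Tcea2), 2 without 3 h replicate 1 (Ccnd2, Gmfb) and 2 without either 0 h array (Enpp2, Ttr). The count of higher probe sets at unadjusted p under 0.05 was 190 with median centring and 108 with no filter, and 15 to 83 with 1 array left out. The count of lower ones was 127 with quantile normalization, 101 with median centring, 137 with the stricter 60th-percentile filter, and 80 to 396 with 1 array left out. Against the other trained groups, 0 passed with median centring, without a variance trend and with the replicate block, and 1 to 3 with 1 array left out; with no filter the 1 call was Nat1 (-0.13) in place of Hnrnpu. The higher count was 381 with median centring (146 with quantile normalization) and 42 to 156 with 1 array left out. The lower count was 166 with quantile normalization, 130 with median centring, 179 with that stricter filter and 112 to 388 with 1 array left out. The causes were not tested. Of 1023 alternative values for 40 named results, 0 reversed, 16 newly passed adjustment and 5 no longer did. Replicate numbers were not taken to pair the arrays. A correlation of deviations over 0.1 was found for 12 of 43 same-number pairs (range -0.20 to 0.19). Of 16 arrays 12 correlated best with their own number, at most a hint of pairing from the data and not from the design. In a group of 2 arrays the deviations from the group mean mirror each other. These counts therefore repeat values and cannot decide whether the arrays were paired. With the replicate block 42 probe sets were higher and 200 lower than naive at unadjusted p under 0.05, and 110 and 297 than the other trained groups.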
